A study of Mus musculus with 5 samples.

Results

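The mouse mitochondrial genome encodes 13 proteins, and 10 of them were followed here in metastatic cancer cells: mt-Nd1, mt-Nd2, mt-Nd3, mt-Nd4, mt-Nd5, mt-Cytb, mt-Co1, mt-Co2, mt-Co3 and mt-Atp6. They were chosen by name from the 23771 genes of the authors' table for day 16, and all 10 were present. The cells came from lungs of female BALB/c mice that had received control medium (CM) or medium holding tumor-secreted factors (TSF), with 3 injections per week over 3 weeks, followed by 25000 4T1 cells carrying the CD90.1 reporter in every group. 4T1 is a mouse mammary carcinoma line, TSF was conditioned by pieces of mouse mammary tumors, and CM was the same medium kept without tumor. At day 11 the mice were 10 weeks old and there were 1 CM library and 2 TSF libraries (a and b), and at day 16 they were 11 weeks old and there was 1 library of each kind. Each library pooled lung cells of 3 mice, and nothing states whether TSF a and b are separate pools, so they are counted as 1 sample. With 1 sample per group there is no replicate check: no test between groups was made, and every interval below covers counting error only.

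Each of these genes makes a subunit of the machinery that turns the energy of nutrients into ATP. Complex I passes electrons from NADH to ubiquinone, complex III passes them on to cytochrome c, complex IV delivers them to oxygen, and the proton gradient that results drives ATP synthase, complex V. These 4 complexes are mosaics, since a few core subunits are made from mitochondrial DNA and the others from nuclear genes, whereas complex II is wholly nuclear. The mitochondrial genes are read from both strands as long precursors that are then cut into separate RNAs. In single-cell data the mitochondrial percent of a cell also serves to judge its quality, and the authors had removed cells above a maximum of 10%.

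The cells were checked against marker genes first. Krt8, a keratin of simple epithelia, was seen in 29 of 29 CM and 137 of 139 TSF cancer cells of day 16, and Krt18 in 28 and 138. Epcam, an epithelial adhesion protein, was seen in 8 and 95 cells, and the CD90.1 reporter in 2 and 48. Of 7 leukocyte markers, 5 were at 0 in CM and 1 was at 0 in TSF, and the summed level was 21.5 CP10k in CM and 5.24 in TSF. CP10k is the number of UMIs of a gene per 10000 UMIs of a cell, averaged over cells. Cd74, an antigen-presentation chaperone, made up 21.5 of the CM sum and 4.23 of the TSF sum. Ptprc, the pan-leukocyte phosphatase, was at 0 in CM and 0.012 CP10k in TSF. S100a9 was at 0 in CM and 0.685 CP10k in TSF, from 4 cells. S100a8 was at 0 and 0.300 CP10k, from 2 cells. Summed endothelial markers stood at 0.059 and 0.163 CP10k, fibroblast markers at 0.091 and 0.606, alveolar markers at 0.363 and 0.059, and red cell markers at 0.048 and 0. Their part in the values below was not tested. The cancer cells were deep, with a median of 27679 UMIs in CM and 26615 in TSF.

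The genes lie on the mitochondrial chromosome of build GRCm38 and have no introns. Of the complex I genes, mt-Nd1 occupies chrM:2751-3707, mt-Nd2 chrM:3914-4951, mt-Nd3 chrM:9459-9806, mt-Nd4 chrM:10167-11544 and mt-Nd5 chrM:11742-13565. The complex IV genes mt-Co1, mt-Co2 and mt-Co3 occupy chrM:5328-6872, chrM:7013-7696 and chrM:8607-9390. The complex III gene mt-Cytb is at chrM:14145-15288 and the complex V gene mt-Atp6 at chrM:7927-8607. All 10 are on the plus strand, and of the other 3 protein genes, mt-Atp8, mt-Nd4l and mt-Nd6, the last is on the minus strand.

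Neighbouring genes share bases, and a read that lay wholly within a stretch shared on 1 strand would fit both. The effect of this on the counts was not measured. The stretches common to mt-Atp8 and mt-Atp6 (chrM:7927-7969, 43 bases) and to mt-Nd4l and mt-Nd4 (chrM:10167-10173, 7 bases, in capitals within their surroundings) are shown from the GENCODE M21 reference, plus strand.
mt-Atp8 and mt-Atp6: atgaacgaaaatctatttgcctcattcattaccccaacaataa
mt-Nd4l and mt-Nd4: tcaacctactacaATGCTAAaaattattct
The ends of mt-Nd5 and mt-Nd6 overlap by 14 bases on opposite strands (chrM:13552-13565). mt-Atp6 and mt-Co3 share 1 base.

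The genes also begin in different ways, shown here by their first 30 bases with the start codon in capitals. The mitochondrial code lets ATA, ATT and other codons start a protein, so a start other than ATG does not mark a damaged gene.
mt-Nd1: GTGttctttattaatatcctaacactcctc
mt-Nd2: ATAaatcctatcacccttgccatcatctac
mt-Nd3: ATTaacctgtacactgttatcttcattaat
mt-Nd5: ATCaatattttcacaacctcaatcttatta
mt-Co2: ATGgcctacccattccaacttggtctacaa
mt-Atp6: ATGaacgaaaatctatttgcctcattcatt
mt-Co3, mt-Nd4 and mt-Cytb, which also begin with ATG, have no complete stop codon in the annotated gene, the usual state of mitochondrial genes whose stop is finished by the poly(A) tail.

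The 10 genes together made up 1.87% of CP10k in the cancer cells of CM at day 16 and 1.99% in those of TSF. Their summed level was 187 and 199 CP10k, a ratio of 1.07. Of the 10, 5 were higher in TSF and 5 were lower. Over all 14735 genes with a UMI, 50.4% were higher in TSF, and over the 1527 genes with a mean of at least 1 CP10k, 43.9% were. The median log2 ratio of the 10 genes, on the log2(CP10k + 1) scale used for every log2 ratio here, was 0.0025, beside 0.0011 for all genes and -0.05 for genes of at least 1 CP10k. None of the 10 reached 0.5 in either direction. Among all genes 0.808% reached 0.5 and 2.00% reached -0.5. Most of the 14735 genes lay under 1 CP10k, where the added 1 shrinks log2 ratios toward 0. The shares past 0.5 were not computed for genes of at least 1 CP10k, the closer match to these genes.

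**Figure D1:**
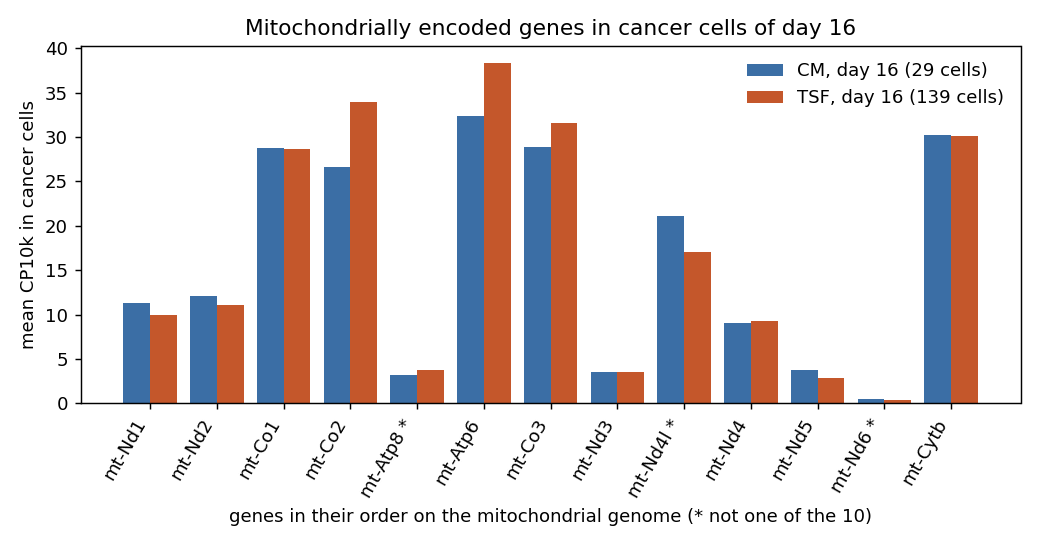
Mean CP10k (vertical axis, from 0) of the 13 mitochondrially encoded protein genes in cancer cells of day 16, blue for CM (29 cells) and orange for TSF (139 cells), in genome order. The TSF bar is the taller for mt-Co2 (34.0 against 26.6) and mt-Atp6 (38.4 against 32.4), while mt-Co1 and mt-Cytb have nearly equal bars. There is 1 library per group, so no error bars are drawn.

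Complex I had the lower genes. mt-Nd5, the subunit at the far end of the membrane arm, stood at 3.80 CP10k in CM and 2.86 in TSF, a log2 ratio of -0.32. mt-Nd1, which lies where the membrane arm meets the arm that takes electrons from NADH, stood at 11.3 and 9.99 (-0.16). mt-Nd2, an antiporter-like subunit of the membrane arm, stood at 12.1 and 11.0 (-0.13). The remaining complex I genes of the 10 were nearly level: mt-Nd4 had 9.04 and 9.23 CP10k (0.03) and mt-Nd3 had 3.48 and 3.50 (0.0064). Summed over these 5 genes, complex I had 39.7 CP10k in CM and 36.6 in TSF, a ratio of 0.921. Beside them, mt-Nd4l had 21.1 and 17.0 CP10k (-0.30) and mt-Nd6, the only minus-strand gene, had 0.495 and 0.369 (-0.13).

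Complexes IV and V had the higher genes. mt-Co2, the subunit that receives electrons from cytochrome c, stood at 26.6 CP10k in CM and 34.0 in TSF, a log2 ratio of 0.34 and the largest of the 10. mt-Co3, a core subunit without metal centres, stood at 28.9 and 31.6 (0.12). mt-Co1, the catalytic subunit where oxygen is reduced, did not follow them, with 28.7 in both libraries (-0.0030). The 3 genes summed to 84.3 and 94.2 CP10k, a ratio of 1.12. mt-Atp6, part of the proton channel of ATP synthase, stood at 32.4 and 38.4 (0.24), and mt-Atp8, another subunit of that enzyme, at 3.15 and 3.72 (0.19). mt-Cytb, the only mitochondrially encoded subunit of complex III, had 30.2 CP10k in both libraries (-0.0014). With Rpl and Rps genes left out of the total, the log2 ratios of mt-Co1 and mt-Cytb became positive, at 0.09 each. All genes that the authors marked as ribosomal, 178 in number, took 19.3% of CP10k in CM and 24.7% in TSF. The Rpl and Rps genes left out were picked by name from these.

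The order of the genes per length was nearly the same in both libraries. In CP10k per kilobase, a level, mt-Nd4l came first with 71.1 in CM and 57.2 in TSF, followed by mt-Atp6 with 47.6 and 56.3. Then came mt-Co2 with 38.9 and 49.7, mt-Co3 with 36.9 and 40.2, mt-Cytb with 26.4 in both, mt-Co1 with 18.6 in both, and mt-Atp8 with 15.4 and 18.2. The complex I genes of the 10 were lower: mt-Nd1 had 11.8 and 10.4 per kilobase, mt-Nd2 11.7 and 10.6, mt-Nd3 10.0 and 10.1, mt-Nd4 6.56 and 6.70, and mt-Nd5 2.08 and 1.57. mt-Nd6 was last with 0.954 and 0.712. mt-Nd1 and mt-Nd2 were the only neighbours to trade places. The libraries read the 5′ ends of RNAs, so dividing by length is a convention and not a correction of the assay. Of the pairs that share bases, the upstream gene had the higher level per kilobase in mt-Nd4l and mt-Nd4, and the downstream gene in mt-Atp8 and mt-Atp6.

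Nearly every cancer cell held UMIs of these genes. mt-Nd1, mt-Nd4, mt-Co2, mt-Co3, mt-Cytb and mt-Atp6 were each seen in 26 of 29 CM cells (89.7%, exact Clopper-Pearson 95% interval 72.6 to 97.8%). In TSF the genes of complexes III, IV and V were seen in 133 or 134 of 139 cells, as for mt-Co2 with 134 (96.4%, interval 91.8 to 98.8%). mt-Nd3 was seen in 23 CM cells (79.3%, interval 60.3 to 92.0%) and 130 TSF cells (93.5%, interval 88.1 to 97.0%). For each of the 10 genes the intervals of the 2 libraries overlapped, which does not show that the shares are alike. Cells with under 10 mitochondrial UMIs, 3 of 29 in CM and 6 of 139 in TSF, enter these shares. All 10 genes but mt-Co1 were seen in a larger share of TSF cells, and how many of all genes were was not computed. mt-Nd6 went the other way, with 19 CM cells (65.5%, interval 45.7 to 82.1%) and 62 TSF cells (44.6%, interval 36.2 to 53.3%).

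The cells without a UMI could in part be found in the cell table. In TSF exactly 5 cancer cells had no mitochondrial UMI at all, and mt-Co1, mt-Co2, mt-Atp6 and mt-Cytb were each missing from exactly 5 cells, so these are the same cells. In CM, 1 cancer cell had none, and mt-Co1 was missing from that cell alone. A further CM cell had 1 mitochondrial UMI among 973 and another had 3 among 7710. In TSF, 4 of the 5 empty cells had 909 to 1849 UMIs, and the other had 28219.

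The nuclear subunits of the same complexes differed more between the libraries than the mitochondrial ones. Summed over complexes I, III, IV and V, nuclear subunits had 234 CP10k in CM and 315 in TSF, a ratio of 1.35, beside 1.07 for the 10 mitochondrial genes. Mitochondrial CP10k per nuclear CP10k was thus 0.797 in CM and 0.633 in TSF. It was lower in TSF for each of the 4 complexes, at 0.655 and 0.433 for complex I, 1.30 and 1.12 for complex III, 1.27 and 1.02 for complex IV, and 0.387 and 0.346 for complex V. The nuclear sum of complex V also counts Atpif1, the inhibitor of ATP synthase, which is not a subunit. These sums compare 2 libraries, and whether the gap exceeds the spread between mice cannot be told.

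For complex I, 32 of 37 nuclear genes were higher in TSF, 5 of them past 0.5, with a median log2 ratio of 0.22. Ndufb9, an accessory subunit, was the farthest out with 1.66 CP10k in CM and 7.76 in TSF (1.72), and the summed level of the 37 genes was 60.7 and 84.6. Ndufa13 came next with 2.35 and 4.56 (0.73). Ndufs1, which carries iron-sulfur clusters of the electron-input arm, stood at 0.575 and 0.274 (-0.31) and Ndufs4 at 1.53 and 1.40 (-0.07).

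For complex IV all 11 nuclear genes were higher in TSF, with 3 past 0.5 and a median log2 ratio of 0.29. Cox6c had 8.73 and 16.0 CP10k (0.81) and Cox6a1 had 3.42 and 6.08 (0.68), while Cox6b1 (0.21) and Cox7b (0.18) differed least. For complex V, 17 of 18 were higher, 6 past 0.5, with a median of 0.31, and the 18 include the inhibitor Atpif1. Atp5mpl, a small membrane subunit, had 3.53 and 7.44 CP10k (0.90), and Atp5g3, which encodes the rotor ring subunit, had 5.61 and 9.18 (0.62). Atp5b, the catalytic subunit, was nearly level with 6.39 and 6.27 (-0.02), as was Atpif1, the enzyme's inhibitor, with 5.21 and 5.29 (0.02).

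Complexes III and II differed less. In complex III, 6 of 9 nuclear genes were higher and the median log2 ratio was 0.12. The hinge protein Uqcrh had 2.89 and 4.44 CP10k (0.48) and Uqcr11 had 3.87 and 5.43 (0.40), while the Rieske iron-sulfur protein Uqcrfs1 had 2.01 and 1.61 (-0.21) and Uqcrc2 1.02 and 0.797 (-0.17). In complex II, which has no mitochondrial gene, 1 of 4 was higher and the sum was 4.79 and 4.77 CP10k. Sdhd, a membrane anchor, had a log2 ratio of 0.35 and Sdha, the flavoprotein that oxidises succinate, had -0.27. Sdhb (-0.03) and Sdhc (-0.08) lay between them.

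**Figure D2:**
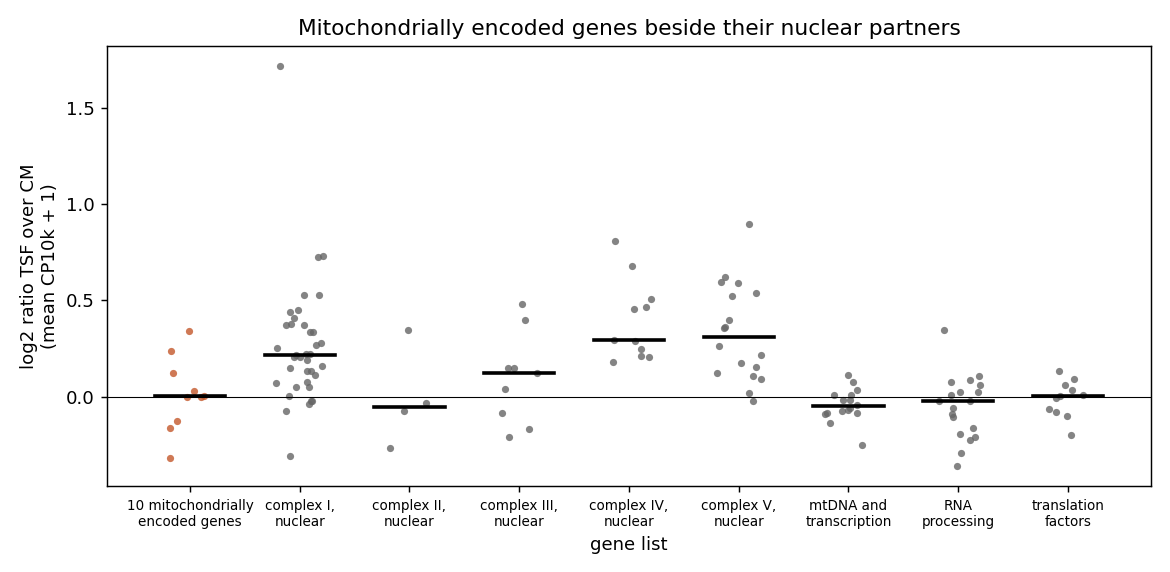
log2 ratio of TSF over CM (vertical axis, mean CP10k + 1) in cancer cells of day 16, 1 point per gene, for the 10 mitochondrially encoded genes (orange) and 8 nuclear lists (grey), with the median of each list as a black bar. The medians of nuclear complexes I, IV and V lie at 0.22, 0.29 and 0.31, those of complex II and of the 3 lists of the expression machinery between -0.06 and 0.0015, and that of the mitochondrial genes at 0.0025.

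The nuclear genes that copy, transcribe and translate the mitochondrial genome were low, most of them under 1 CP10k, where the added 1 shrinks log2 ratios toward 0. Of 16 genes for mitochondrial DNA upkeep and transcription, 5 were higher in TSF. Their summed level was 3.20 CP10k in CM and 2.50 in TSF, a ratio of 0.781, and the median log2 ratio was -0.05, or -0.26 with 0.1 added in place of 1. Ssbp1, which coats single-stranded mitochondrial DNA, had 1.20 and 0.847 CP10k (-0.25), and Polg, the catalytic subunit of the DNA polymerase, had 0.169 and 0.064 (-0.13). Its accessory subunit Polg2 (0.11) and the RNA polymerase Polrmt (0.08) were the highest of that list. Of 19 genes for RNA processing and stability, 8 were higher, with a median of -0.02 (-0.12 with 0.1 added) and summed levels of 5.87 and 5.13 CP10k, a ratio of 0.875. Slirp, which binds mitochondrial mRNAs, had 1.11 and 1.68 CP10k (0.35), and Mtpap, the poly(A) polymerase, a log2 ratio of 0.11. Trmt10c, a subunit of the enzyme that cuts tRNAs out of the precursor at their 5′ ends, had 0.740 and 0.355 CP10k (-0.36), and Pnpt1, which degrades mitochondrial RNA, had 0.435 and 0.173 (-0.29). Of 11 translation factors, 6 were higher, the sums were 2.65 and 2.53 CP10k (ratio 0.951) and the median was 0.0015, from Gfm2 (0.13) and Mrrf (0.09) to Mtif3 (-0.10) and Gfm1 (-0.20).

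Copies of mitochondrial genes in nuclear chromosomes bear on how these RNAs were counted. In GRCm38 a stretch of chromosome 1, chr1:24611535-24616197 on the minus strand, holds annotated copies of 7 mitochondrial protein genes. The copy of mt-Co2, Gm28661, is identical at 681 of 681 aligned bases, that of mt-Atp6, Gm10925, at 678 of 678, and that of mt-Co3, Gm28437, at 783 of 783. Gm28438 matches mt-Nd3 at 344 of 345 bases, and Gm28439 matches the first 876 bases of mt-Nd4, 63.6% of the gene, without a mismatch. Gm10222 matches mt-Nd4l at 294 of 294. The copies with 99% identity or more thus belong to 5 of the 10 genes, and the first 30 bases of mt-Nd3 and of its copy show the gene among them that differs, with the first codon in capitals.
mt-Nd3: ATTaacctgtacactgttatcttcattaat
Gm28438: ATCaacctgtacactgttatcttcattaat
More diverged copies exist for mt-Co1 (Gm13340 on chromosome 2, 97.6% identical, and Gm29216 on chromosome 1, 98.8%) and mt-Nd2 (Gm13339 on chromosome 2, 96.7%). None of these 9 copies was among the genes analysed here.

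The 5 genes with a near-identical copy were the 5 that were higher in TSF. Their sum was 100.4 CP10k in CM and 117 in TSF, a ratio of 1.16 with a median log2 ratio of 0.12. The other 5 summed to 86.2 and 82.7, a ratio of 0.960 with a median of -0.13. The split was not a wide one, because mt-Nd3 and mt-Nd4 of the former and mt-Co1 and mt-Cytb of the latter all lay within 0.03 of 0. Grouping the genes in this way was not planned, and the clean split rests on the cut in identity. Of the 7 genes with any copy found, 5 were higher in TSF and 2, mt-Co1 and mt-Nd2, were lower. The 3 genes without a copy were all lower. With Rpl and Rps genes left out of the total, mt-Co1 (0.092) and mt-Cytb (0.093) were positive as well. Outside the 10, mt-Nd4l has an identical copy and was lower in TSF (-0.30). Which reads were assigned to the copies was not tested.

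The mitochondrial percent of a single cell, deposited for every cell, adds the spread between cells. It is the share of a cell's UMIs from the 13 protein genes, and its mean over the cancer cells of day 16 equals the summed CP10k of those genes. In CM the 29 cancer cells ran from 0 to 6.998% with a median of 1.72% and a mean of 2.11% (SD over cells 1.62). In TSF the 139 cells ran from 0 to 7.12% with a median of 1.99% and a mean of 2.20% (SD over cells 1.28). The ranges overlapped almost wholly. The quartiles were 1.28 and 2.57% in CM and 1.44 and 2.62% in TSF, and 20.7% of CM cells and 20.9% of TSF cells lay above 3%.

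The direction of that difference depended on how cells were summarised. TSF was higher by 0.275 percentage points in the median and by 0.091 in the mean. Pooling all UMIs of the cancer cells put TSF lower, at 2.08% (82015 of 3937739 UMIs, interval 2.07 to 2.10%) against 2.20% in CM (15960 of 726849, interval 2.16 to 2.23%). Cells with under 10 mitochondrial UMIs numbered 3 of 29 in CM and 6 of 139 in TSF. Without them the means were 2.35% in CM and 2.30% in TSF, so the mean turned, and the medians were 1.82 and 2.02%.

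**Figure D3:**
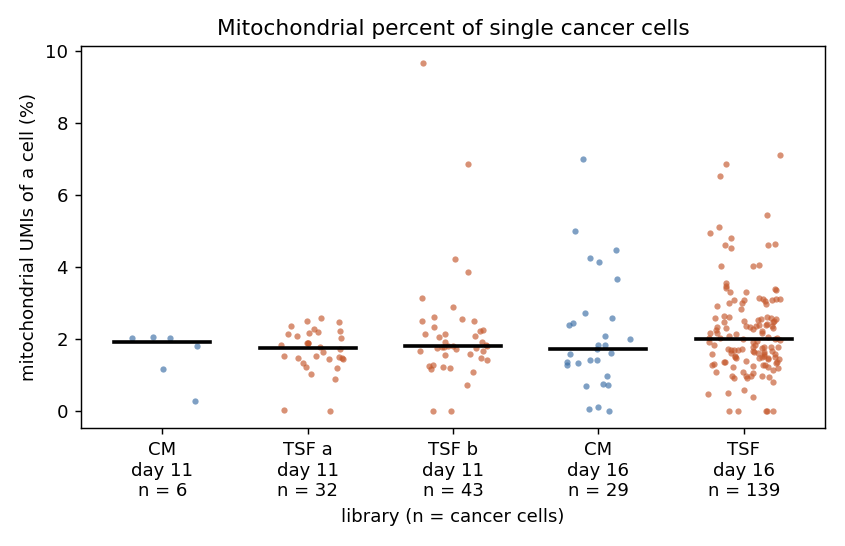
Mitochondrial UMIs of each cancer cell as a percent of its UMIs (vertical axis), 1 point per cell, in the 5 libraries, with the median as a black bar (CM in blue, TSF in orange). The medians lie between 1.72 and 1.99%, and each library with over 6 cells has cells at or near 0.

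Depth and cluster divided the cells further. Among cells of at least 10000 UMIs the medians of CM and TSF were both 1.99%, and among the 8 CM and 14 TSF cells below that they were 1.03 and 2.08%. The authors split cancer cells into clusters 120 and 131, and CM had 6 and 23 cells in them while TSF had 85 and 54. Within cluster 131 the median was 1.72% in CM and 2.21% in TSF. Within cluster 120 it was 2.78% in CM, from 6 cells between 0.039 and 4.47%, and 1.74% in TSF. Across cells, Spearman's rho of the percent with the cell's UMIs was 0.20 in CM and -0.15 in TSF, both of which share the UMI total as denominator.

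**Figure D4:**
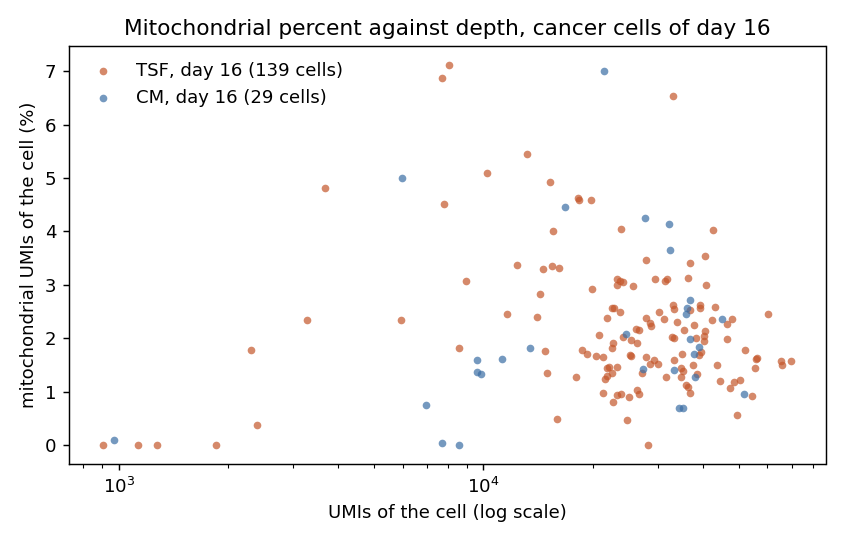
Mitochondrial percent (vertical axis) against UMIs of the cell (horizontal axis, log scale) for cancer cells of day 16, CM in blue and TSF in orange. The TSF cells at 0 are mostly those of lowest depth, and the CM cells under 10000 UMIs have a median of 1.03% against 2.08% in TSF.

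At day 11, the cancer cells had no gene table and were described by the percent alone. The median was 1.91% in CM from only 6 cells (0.273 to 2.04%), 1.75% in TSF a from 32 cells (0 to 2.59%) and 1.80% in TSF b from 43 cells (0 to 9.66%). TSF was thus lower than CM by the median in both libraries, by -0.161 and -0.110 percentage points. By the mean it was higher in both, at 1.67 and 2.16% against 1.55% in CM. The TSF libraries a and b differed from each other by 0.051 in the median and by more in the mean, and 2 cells above 5% stood in b and none in a. From day 11 to day 16 the TSF medians were 1.75, 1.80 and 1.99%.

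The cancer cells were among the lower cell types in mitochondrial percent. By the median they ranked 13 of 17 cell types with at least 20 cells in CM at day 16 and 15 of 18 in TSF. Club cells, secretory cells of the airway, ranked first in both (4.42 and 5.85%), the type the authors named ACT2 second (3.88 and 3.93%) and neutrophils last (0 and 0.190%). TSF was higher in 16 of 17 types, with a median difference of 0.370 percentage points. The cancer cells, with 0.275, ranked 11 of the 17, and pericytes were the type that was lower (-0.106). The cell types share their library, so these 17 differences are not independent and the cancer cells did not stand apart from them. Over all annotated cells pooled, the percent was instead lower in TSF, 2.38% against 2.81%, and neutrophils numbered 1407 of 4896 cells in TSF and 203 of 3567 in CM.

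At day 11 the difference had no common direction. TSF a was higher than CM in 8 of 17 types and lower in 8, and TSF b was higher in 13 of 18 and lower in 4. TSF b was above TSF a in 14 of 18 types, with a median difference of 0.134 percentage points. That gap lies between libraries of 1 group.

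**Figure D5:**
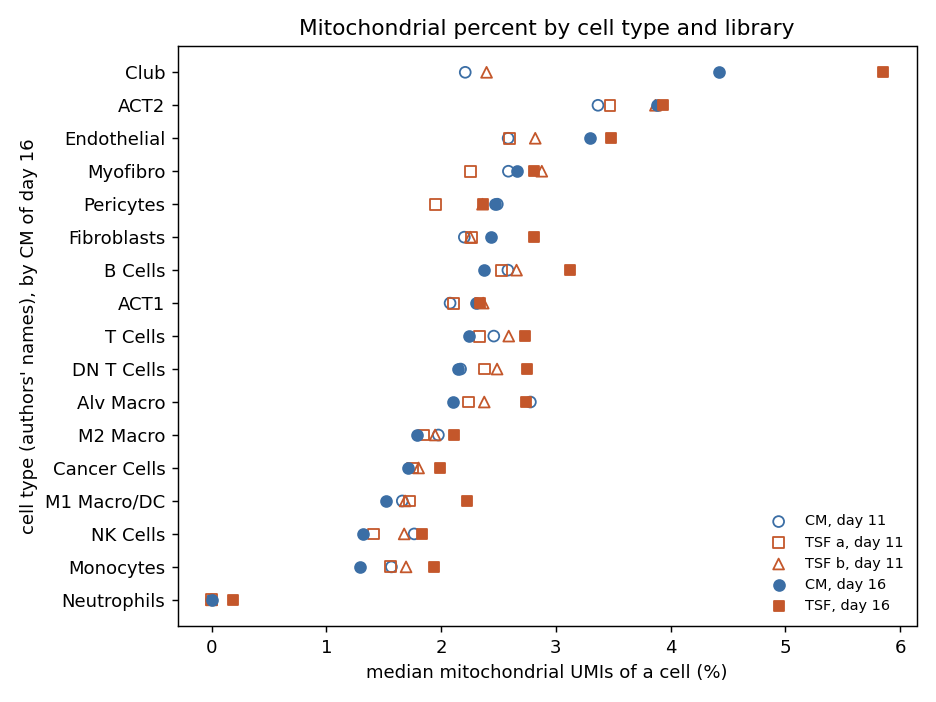
Median mitochondrial percent (horizontal axis) of 17 cell types with at least 20 cells in both day-16 libraries (vertical axis, ordered by CM of day 16), open symbols for day 11 and filled symbols for day 16, CM in blue and TSF in orange. The filled orange squares lie to the right of the filled blue circles in 16 of the 17 types, and the open symbols show no such order. Medians from fewer than 20 cells are not drawn.

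The authors' deposited collection of 3065 gene sets held at least 1 of the 10 genes in 32 sets and all 10 in 5, each named for oxidative phosphorylation, electron transport, the citric acid cycle or Parkinson's disease. Of the nuclear genes with a UMI in those 5 sets, 67.7 to 77.6% were higher in TSF, beside 50.4% of all genes. Their median log2 ratios were 0.07 to 0.18. The 10 mitochondrial genes split 5 to 5 within the same sets. Of the 11 sets that held a single member, 4 held mt-Co2: those named for nuclear beta-catenin, EGF receptor, PDGF and endothelin signalling. None of the 4 held Ptgs2, the prostaglandin synthase that is also known as cyclooxygenase 2.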

How the data were processed

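Single-cell libraries (Chromium 5′ kit) were made by the authors from pooled lungs, mapped to mm10 (GRCm38.p6) with Cell Ranger, corrected for ambient RNA with a modified SoupX and analysed with Seurat 4.1.0, per the labels and the study's methods. The deposited cell table gives the UMI count of each cell after that correction and the percent of mitochondrial UMIs. Mitochondrial UMIs, computed as percent times UMIs, were whole numbers (within 1e-06) in 100.0% of cells. Cells had at least 800 UMIs. The deposited gene table gives mean CP10k and the count and percent of cells with a UMI for cancer cells of day 16. Its fold changes, p-values and q-values, and the authors' enrichment scores, were not used. Cells called doublets or unknown by the authors (1734 of 23852) were left out, as were 2 libraries of the cell table that match no sample. Libraries shared 14 to 38 cell barcodes.

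log2 ratios were computed as log2 of (TSF + 1) over (CM + 1), and 0.5 was the size used for calls. The code that computes these ratios was checked on simulated data, with known changes put into the CM levels. No noise was added, so this checks the arithmetic only. Intervals are exact binomial at the 95% level and cover counting error only. The depth was 11361766 to 19626922 UMIs per library over annotated cells. Shares of cells were not thinned to equal depth. Nuclear copies were sought among the unprocessed pseudogenes of GENCODE M21, aligned without gaps to each mitochondrial gene over at least 200 bases at 95% identity or more. The genes named were all mitochondrial protein genes and part of the marker genes. In each nuclear list they were the 2 highest and 2 lowest ratios among genes in at least 10% of cells. The members and lists were chosen with earlier results of these data known. Alternatives covered the pseudocount, rescaling without mitochondrial or ribosomal protein genes, filters on genes and cells, and mean, pooled or median percent. Figures were drawn with matplotlib 3.10.9 and values computed with pandas 2.3.3, scipy 1.17.1 and numpy 2.4.6 under Python 3.11.15.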

Additional observations from a re-analysis of the deposited data

Results flagged for a closer look

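Cell types with at least 20 cells in every library were searched, and the cancer cells were added although they fall below that minimum. At day 16 TSF was higher in 16 of 17 types with at least 20 cells in both libraries, so the search turned mostly on day 11. In 4 of the types searched, both TSF libraries of day 11 had a lower median mitochondrial percent than CM, and TSF of day 16 had a higher one. Among the smaller types left out, those the authors named LECs went the same way and those named Cilliated went the opposite way. This difference between the days was not tested, since each day has 1 CM library. For the cancer cells the TSF minus CM difference was -0.161 and -0.110 percentage points at day 11 and 0.275 at day 16, which is 0.411 apart, and the CM library of day 11 held only 6 cancer cells. By the mean the cancer cells were higher in TSF at both days. For the cells the authors named Alv Macro the differences were -0.536 and -0.402 at day 11 and 0.641 at day 16 (1.11 apart). For NK cells they were -0.353, -0.087 and 0.514 (0.734 apart). For those named M2 Macro they were -0.129, -0.028 and 0.325 (0.404 apart).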

How the results depend on the processing

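The count of 5 of the 10 genes higher in TSF was 5 with a pseudocount of 0.1 and with all mitochondrial genes left out of the total, and 7 with Rpl and Rps genes left out, when mt-Co1 (0.092) and mt-Cytb (0.093) turned positive. The median log2 ratio of the 10 stayed between 0.0025 and 0.09 under those settings. It was -0.13 over the 5 genes without a near-identical nuclear copy, a setting that was not planned. The nuclear median of complex II turned to 0.00019 without Rpl and Rps genes. With a pseudocount of 0.1 the medians were 0.33 for complex I and -0.26 for mitochondrial transcription. The other nuclear medians kept their sign. Of all genes, 40.3% were higher in TSF among those in at least 10% of cells.

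The TSF minus CM difference in the mitochondrial percent of cancer cells at day 16 (0.275 by the median) was 0.091 by the mean, -0.113 for pooled UMIs and 0.00075 in cells of at least 10000 UMIs. Settings chosen after seeing the data gave 0.194 by the median and -0.051 by the mean in cells with at least 10 mitochondrial UMIs, 0.230 by the mean without the highest cell of each library, -1.04 in cluster 120 and 0.490 in cluster 131. The day-11 difference (-0.136) was 0.365 by the mean, 0.133 for pooled UMIs and -0.219 in cells of at least 10000 UMIs, and from -0.161 to -0.110 without TSF replicate a or b. The cause of these changes was not tested. The count of cell types higher in TSF at day 16 was 17 of 17 by the mean, 15 of 17 for pooled UMIs, 14 of 15 under a higher minimum of UMIs per cell, 14 of 16 with a maximum of 8% and 12 of 13 with at least 50 cells per type. No paired analysis was possible because each group compared at day 16 is 1 library, and at day 11 CM is 1 library, so no pairs of replicates exist. With 29 and 139 cells in single libraries, the values compare libraries and not treatments, and counting intervals leave out differences between mice.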
